A study of Mus musculus with 6 samples.

Results

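Transcripts of 10 hepatic carriers of bile acids and organic anions were examined in mouse liver, listed by gene name with no measured value in the rule. They were read by 12 of the 55681 probes on the array, matched through the probes' accessions in RefSeq, and made up 10 of the 20659 features tested. The uptake carriers were Slc10a1, Slco1a1, Slco1a4, Slco1b2 and Slco2b1, the exporters of the bile-facing (canalicular) membrane were Abcb11, Abcb4 and Abcc2, and the exporters of the blood-facing (basolateral) membrane were Abcc3 and Abcc4. All 12 probes were well above background in both diets in 4 of 4 pool pairs, so no member was lost to the filter on dim probes.

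The animals were male mice without Apoe, the apolipoprotein through which remnant lipoproteins are cleared, on a C57BL/6J background. The control group of 9 mice ate a purified Western diet with 0.15% cholesterol and 20% palm oil, and the other group of 10 mice ate that diet with 1% squalene, a precursor of cholesterol, for 11 weeks. The 1% addition corresponded to about 1 g per kg body weight. Age at the start was not given in the sources used here, all animals lacked Apoe, and no chow-fed or Apoe-carrying group was part of the comparison. Liver RNA was combined into 4 pools per diet, each from 2 or 3 animals, so the spread between single animals is not seen. Each 2-colour array carried 1 squalene pool and 1 Western pool, labelled with the dyes Cy5 and Cy3. The squalene pool was in Cy5 in pool pairs 1 and 4 and in Cy3 in pairs 2 and 3. Pairs 1 and 2 were hybridised on 2 arrays each, on slides 1 and 2, and their repeat arrays were averaged. Values are log2 ratios of squalene over Western per pool pair unless a level is named, and a level is the log2 intensity of 1 pool.

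Hepatocytes take bile acids up from portal blood and secrete them into bile, so that the acids circulate between gut and liver. Slc10a1 (NTCP) takes up conjugated bile acids with sodium, and the Slco carriers (OATPs) take up organic anions, bilirubin, hormones and drugs without it. Abcb11 (BSEP) pumps bile salts across the canalicular membrane, Abcb4 (MDR2) flips phosphatidylcholine into bile, Abcc2 (MRP2) exports conjugates such as bilirubin glucuronide, and Abcc3 and Abcc4 (MRP3 and MRP4) return bile acids and conjugates to blood. The bile acid receptor FXR and the xenobiotic receptors CAR and PXR are known regulators of several of these genes.

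On the 6 arrays no spot was saturated, and each channel had 46.6% to 51.9% of its spots well above background. The RNA carried hepatocyte transcripts: 13 of 14 listed hepatocyte markers were measured. Repeat arrays of the same pools correlated with r = 0.85 (pair 1) and r = 0.88 (pair 2) across features, which are not independent replicates. The transporters' own repeat ratios differed by a median of 0.05 in pair 1 and 0.08 in pair 2, and by at most 0.11 and 0.24. Fitted with limma and adjusted by the Benjamini-Hochberg method, no feature reached the threshold of 0.05 (0% of features), the smallest adjusted p over all features was 0.158, and 510 features had an unadjusted p under 0.05.

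No transporter passed the test after adjustment. Of the 10 members, 7 had a mean ratio above 0 and 3 below, where 51.8% of all features lay above 0. The median ratio was 0.04 for the members and 0.003 for all features. Of the 10, 2, Slco1a4 and Abcc3, had an unadjusted p under 0.05, both toward higher levels with squalene, beside 2.47% of all features in either direction and 1.05% in the higher direction. Slco1a4, Abcc2 and Abcc3 were above 0 in all 4 pairs (3.34% of all features), and no member was below 0 in all 4 (3.05% of all features). The members were chosen with earlier results of these data known, which limits what these counts show. The adjusted p of every member was 1.00 in limma with Benjamini-Hochberg adjustment, and an exact sign-flip permutation test of 4 pairs cannot reach a two-sided p of 0.05. The members varied more between pool pairs than a usual feature, with a median SD of 0.39 against 0.16 over all features. That SD also holds differences between dye orientations. The SE of the fit with its dye term had a median of 0.099 for the members and 0.065 for all features.

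**Figure D1:**
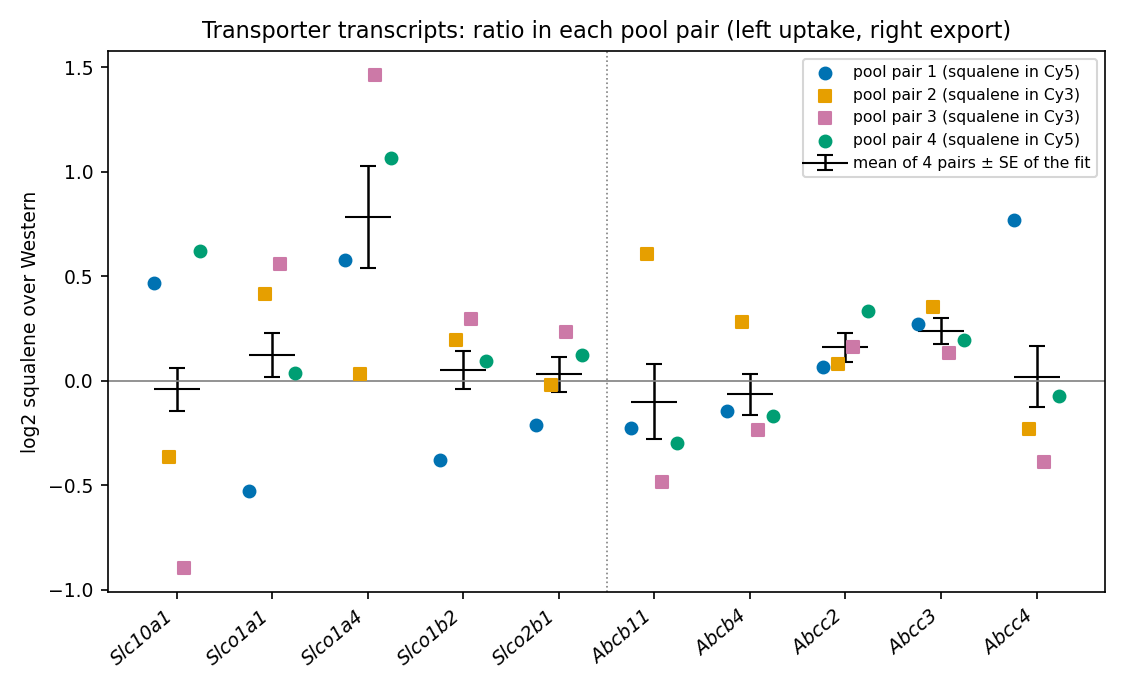
Log2 ratio of squalene over Western for the 10 transporters, with 1 point per pool pair marked by dye orientation and the mean ± SE of the limma fit. Slco1a4, Abcc2 and Abcc3 have every point above 0. The points of Slc10a1, Slco1a1, Slco1b2 and Abcc4 separate by dye, those of Slc10a1 on opposite sides of 0.

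Slco1a4 (OATP1A4, read by probe A_51_P335569), a carrier of organic anions and cardiac glycosides, had the highest mean ratio of the 10. Its ratios were 0.58, 0.03, 1.46 and 1.07 in pool pairs 1 to 4. Pair 2 was close to 0 and pairs 3 and 4 were high. The mean was 0.78 ± 0.62 (SD, n = 4 pool pairs) with an SE of 0.24 and a 95% interval of 0.16 to 1.41, or 1.72-fold (1.12 to 2.66). Its p was 0.0232 unadjusted and its adjusted p was 1.00 in limma with Benjamini-Hochberg adjustment, placing it 226th of the 20659 features. By dye orientation the mean of Slco1a4 was 0.82 with squalene in Cy5 and 0.75 with squalene in Cy3. Its level was 8.88, 9.01, 9.36 and 9.68 in the squalene pools and 8.30, 8.98, 7.90 and 8.61 in the Western pools. The pools of the 2 diets overlapped, since the squalene pool of pair 1 lay below the Western pool of pair 2. The diet effect of the fit with its dye term was 1.14 without pair 2 and 0.43 without pair 3. It was 0.91 without pair 1 and 0.66 without pair 4. These are not plain means of the pairs left, since the fit weighs the 2 dye orientations equally. Without pair 4 the unadjusted p was 0.0989 with limma. Slide 2, which carried all 4 pairs, gave 0.78, and the 2 pairs on slide 1 gave 0.31 with no test.

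The promoter of Slco1a4 is shown beside that of its chromosome 6 neighbour Slco1a1 because Slco1a4 had the highest mean ratio and the 2 genes are neighbours in RefSeq; the difference between their ratios was not tested. Both are RefSeq sequences of build GRCm38.p6 on the minus strand, chr6:141856285-141856470 for Slco1a4 and chr6:141946963-141947212 for Slco1a1, 5′ to 3′, with nuclear receptor half-sites AGGTCA and AGTTCA in capitals, or as TGACCT and TGAACT where they lie on the other strand. Only bases upstream of every annotated transcript are printed.
Slco1a4: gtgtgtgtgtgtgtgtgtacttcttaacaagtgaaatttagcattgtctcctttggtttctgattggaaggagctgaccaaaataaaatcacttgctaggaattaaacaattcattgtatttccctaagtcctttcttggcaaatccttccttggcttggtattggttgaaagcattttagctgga
Slco1a1: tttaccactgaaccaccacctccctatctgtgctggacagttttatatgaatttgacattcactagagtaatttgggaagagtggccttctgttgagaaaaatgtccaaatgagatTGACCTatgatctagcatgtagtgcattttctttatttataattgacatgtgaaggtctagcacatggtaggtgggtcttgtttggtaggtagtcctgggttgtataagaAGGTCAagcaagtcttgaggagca
The window of Slco1a4, from 250 bases before to 50 after its start, held no half-site and that of Slco1a1 held AGGTCA on both strands. Over the 32851 promoters in the RefSeq table, searched on both strands and each 300 bases long, 16.3% held AGGTCA, 14.0% held AGTTCA and 27.7% held either. Pairs of these half-sites as direct repeats with a gap of 4 bases (DR4) occurred in 0.0274%, everted repeats with a gap of 6 (ER6) in 0.0091% and inverted repeats with a gap of 1 (IR1) in 0.0152%. Of the 10 members, 9 had a promoter in the table, 13 promoters in all, of which 7 held either half-site and none held DR4, ER6 or IR1. Pairs so rare over all promoters are seldom met in 13, so their absence does not set the members apart. A match in these letters is not a binding site.

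Slco1a1 (OATP1A1), a carrier of steroid conjugates that is higher in male than in female mouse liver, gave -0.53, 0.41, 0.56 and 0.04. Its levels were 11.15, 11.95, 11.87 and 11.71 with squalene against 11.68, 11.53, 11.31 and 11.67 without, which overlap. Pair 1 lay on the opposite side of 0 from the other 3. The mean was 0.12 ± 0.48 (SD, n = 4) with a 95% interval of -0.15 to 0.39 and an unadjusted limma p of 0.302. It also differed by dye, with a dye coefficient of -0.37 (SE 0.11) and an unadjusted dye p of 0.0177 in limma, where 15.3% of all features had a dye p under 0.05. The 15 measured male-biased liver genes, a list that holds Slco1a1, averaged -0.53, 0.25, 0.15 and 0.12 in the same pairs, with 1 of 15 above 0 in pair 1. Elovl3 and Cyp2d9 of that list had means of -0.43 and 0.06. Of 8 measured female-biased genes 6 were above 0 and 2 below, with Cyp2b9 at 1.46, Cyp3a16 at 0.80 and Cyp3a41b at 0.74, of which all 3 are also on the CAR and PXR list. The part of the sex-biased genes in the Slco1a1 values was not tested.

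Slco1b2 (OATP1B2), a liver carrier of bilirubin and bile acids, gave -0.38, 0.19, 0.30 and 0.09, a mean of 0.05 with a 95% interval of -0.19 to 0.29. By dye orientation the mean of Slco1b2 was -0.14 with squalene in Cy5 and 0.24 with squalene in Cy3. Its unadjusted dye p was 0.0898 in limma. Slco2b1 (OATP2B1), a carrier of steroid sulphates, gave -0.21, -0.02, 0.23 and 0.12, a mean of 0.03 with an interval of -0.19 to 0.25. Pair 1 was the lowest pair for Slco1a1, Slco1b2 and Slco2b1, and in each of them pair 3 was the highest. Slco1b2 levels ran from 15.31 to 15.68 with squalene and 15.25 to 15.69 without, and Slco2b1 levels from 11.62 to 12.13 and 11.83 to 11.91, so the pools of both overlapped. The order of Slco2b1 was repeated by its dimmer probe, at -0.27, -0.16, 0.19 and 0.07, while the mean of that probe was -0.04. The Slco genes resemble one another in sequence, so a probe may read a related transcript, and probe sequences were not used here.

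Slc10a1 (NTCP), the main sodium-dependent uptake carrier, had a ratio that differed in sign between the dye orientations. Its brighter probe gave 0.47, -0.36, -0.89 and 0.62, so the 2 pairs with squalene in Cy5 were above 0 and those with squalene in Cy3 below. The means by orientation were 0.54 and -0.63, the dye coefficient was 0.59 (SE 0.10) and the dye p was 0.00212 unadjusted and 0.146 after Benjamini-Hochberg adjustment in limma. No feature reached an adjusted dye p of 0.05 (0% of features), and 1 other member, Slco1a1, had an unadjusted dye p under 0.05. The diet effect of this probe was -0.04 with a 95% interval of -0.30 to 0.22 and an unadjusted limma p of 0.697. That interval counts the difference between orientations as dye. The SD of the 4 pairs was 0.71, and the SE was 0.10 with the dye term and 0.25 without it. Levels of the brighter probe were 17.59, 17.15, 16.79 and 17.58 with squalene and 17.13, 17.51, 17.68 and 16.96 without, so in every pair the Cy5 channel was the brighter. Its dimmer probe gave -0.26, 0.22, 0.47 and -0.19 under loess, the opposite sign in all 4 pairs, and a mean of 0.06. The dimmer probe kept these signs with the scanner's processed signals and the deposited values. Under median centring it gave 0.22, -0.31, 0.32 and 0.05, so there the 2 probes shared a sign in pairs 1, 2 and 4. The brighter probe is among the brightest on the array, with 36 of the 26853 kept probes brighter. Its raw Cy5 over Cy3 signal lay between 2.27 and 3.16 on all 6 arrays, whichever diet was in Cy5, against 0.883 to 1.49 for the dimmer probe. The 4 pairs of the brighter probe kept their signs under loess, median centring, the scanner's processed signals and the deposited values. Since the 2 dye orientations also held different pools, and the 2 probes differed in sign under loess, no direction is given for Slc10a1. The cause of these differences was not tested.

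**Figure D2:**
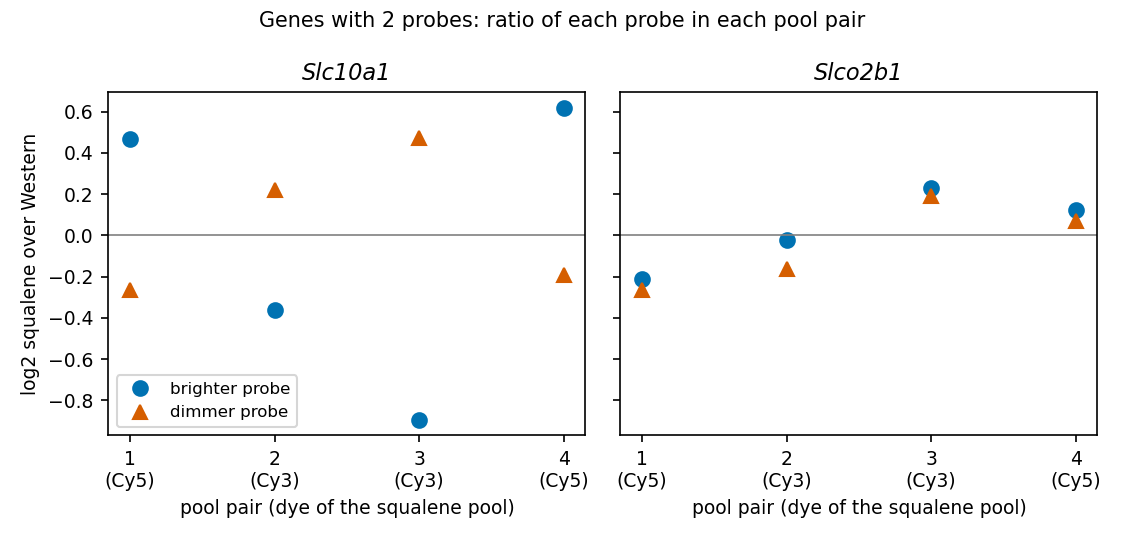
Pool-pair ratios of the brighter and dimmer probes of Slc10a1 and Slco2b1 after loess, as log2 squalene over Western. The Slc10a1 probes mirror each other under loess, while the Slco2b1 probes keep the same order of pairs there.

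Abcb11 (BSEP), which exports bile salts into bile, gave -0.22, 0.61, -0.49 and -0.30, so that pair 2 alone was above 0. The mean was -0.10 ± 0.48 (SD, n = 4) with a 95% interval of -0.56 to 0.36, and levels were 14.08, 14.32, 13.80 and 13.84 with squalene against 14.30, 13.71, 14.28 and 14.14 without. The repeat arrays of pair 2 gave 0.58 and 0.63, so both arrays read it alike. Abcb4 (MDR2), the phospholipid flippase, had the same shape at a smaller size, at -0.14, 0.28, -0.23 and -0.17, with a mean of -0.07 and an interval of -0.31 to 0.18. Abcb4 levels ran from 14.57 to 14.90 with squalene and 14.52 to 15.04 without. Leaving out pair 3 turned the diet effect of the fit with its dye term above 0, to 0.17 for Abcb11 and 0.06 for Abcb4. These are not plain means of the pairs left, since pair 2 alone then had squalene in Cy3 and weighed as much as pairs 1 and 4 together. The 12 periportal hepatocyte markers averaged -0.02, 0.21, -0.05 and -0.20 in the 4 pairs, with 6 above 0 on average and 6 below. The 12 pericentral markers averaged -0.22, -0.16, 0.23 and 0.05, with 4 above 0 and 8 below. The part of either list in the Abcb11 and Abcb4 values was not tested.

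The promoters of the 3 canalicular exporters are printed next. Each holds a half-site, as do 7 of the 9 members with a promoter in the table, so this does not set them apart. On build GRCm38.p6 they are Abcb11 at chr2:69342617-69342866 (minus strand), Abcb4 at chr5:8893471-8893613 (plus strand) and Abcc2 at chr19:43782058-43782307 (plus strand), written as above.
Abcb11: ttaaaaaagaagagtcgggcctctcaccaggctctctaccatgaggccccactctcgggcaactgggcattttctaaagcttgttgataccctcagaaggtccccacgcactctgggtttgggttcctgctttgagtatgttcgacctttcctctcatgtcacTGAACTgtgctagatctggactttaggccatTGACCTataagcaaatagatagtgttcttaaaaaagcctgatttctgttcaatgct
Abcb4: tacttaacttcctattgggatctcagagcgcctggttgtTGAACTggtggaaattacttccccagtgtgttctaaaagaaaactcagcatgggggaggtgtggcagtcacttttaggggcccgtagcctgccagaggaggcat
Abcc2: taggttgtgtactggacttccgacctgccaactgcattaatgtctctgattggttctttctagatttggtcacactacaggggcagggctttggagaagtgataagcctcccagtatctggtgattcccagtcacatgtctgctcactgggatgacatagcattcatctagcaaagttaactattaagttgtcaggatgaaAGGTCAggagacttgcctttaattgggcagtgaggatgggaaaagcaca
The Abcb11 stretch held both half-sites on the opposite strand, the Abcb4 stretch held AGTTCA on the opposite strand and the Abcc2 stretch held AGGTCA on its own. Abcc3 had no entry in the table.

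Abcc2 (MRP2) was above 0 in every pair, at 0.06, 0.08, 0.16 and 0.34. The mean was 0.16 ± 0.12 (SD, n = 4), or 1.12-fold, with a 95% interval of -0.02 to 0.34 and an unadjusted limma p of 0.0665. Levels were 12.04, 12.19, 11.96 and 12.12 with squalene against 11.97, 12.11, 11.80 and 11.78 without, and the pools overlapped. Leaving out pair 4 gave 0.09, with an unadjusted limma p of 0.319, while slide 1 gave 0.13 and slide 2 gave 0.13.

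Abcc3 (MRP3), which moves bile acids and glucuronides back into blood, had ratios of 0.27, 0.35, 0.13 and 0.20, the narrowest spread of the 10. The mean was 0.24 ± 0.10 (SD, n = 4), or 1.18-fold, with a 95% interval of 0.07 to 0.40, an unadjusted p of 0.0134 and an adjusted p of 1.00 (limma, Benjamini-Hochberg). Its squalene levels were 13.77, 13.70, 13.50 and 13.63 and its Western levels 13.50, 13.35, 13.37 and 13.43. The 4 squalene pools all lay above the 4 Western pools, as they did for 0.378% of all features, but the lowest squalene pool stood at 13.503 and the highest Western pool at 13.498. Its dye p was 0.950 in limma. Without pair 1 or pair 2 the unadjusted p of Abcc3 was 0.0744 or 0.0512 in limma. Slide 2 gave 0.21 and slide 1 gave 0.36. Under median centring, pair 2 was -0.23 and pair 3 was -0.04, and in the deposited values pair 4 was -0.22, so the sign in every pair held in 4 of 6 other settings. The same count was 4 of 6 for Abcc2, whose pair 2 was -0.39 under median centring, and 5 of 6 for Slco1a4, whose pair 2 was -0.24 there.

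**Figure D3:**
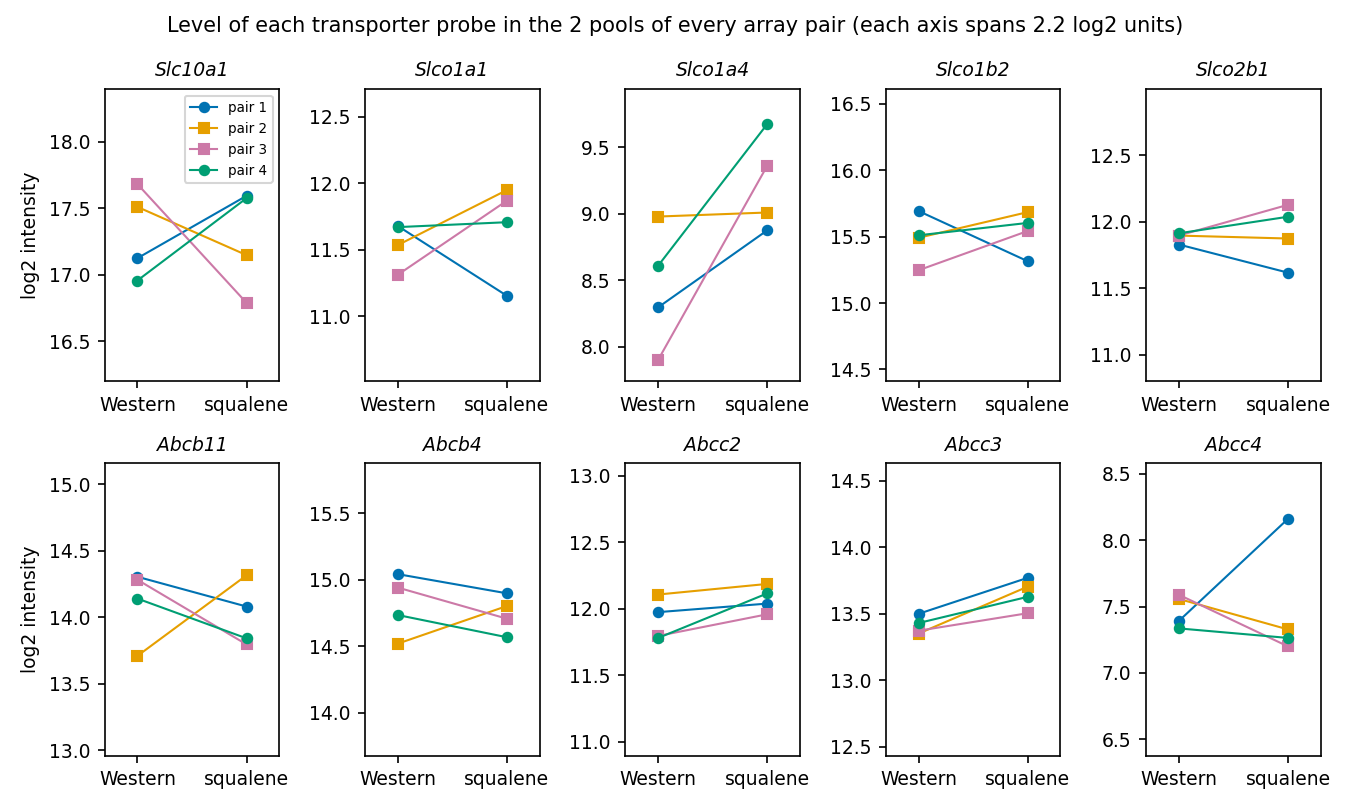
Log2 intensity of the 10 transporters in the 4 squalene and 4 Western pools, each probe on its own scale. Levels of different probes are not comparable, and Abcc3 is the only member whose pools do not overlap.

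Abcc4 (MRP4), a basolateral exporter that also carries cyclic nucleotides, gave 0.77, -0.23, -0.39 and -0.07, a mean of 0.02 ± 0.52 (SD, n = 4) with a 95% interval of -0.35 to 0.39. The squalene pool of pair 1 was at 8.16 and the other 3 at 7.33, 7.20 and 7.26, while the Western pools ran from 7.34 to 7.59. Repeat arrays of pair 1 gave 0.76 and 0.78. By dye orientation the mean of Abcc4 was 0.35 with squalene in Cy5 and -0.31 with squalene in Cy3. Its unadjusted dye p was 0.0715 in limma. In the fit with its dye term the diet effect was -0.19 without pair 1 and -0.020 without pair 2, so its sign rested on which pairs were used. Neither value is the plain mean of the pairs left. With pair 2 left out, pair 3 alone had squalene in Cy3 and weighed as much as pairs 1 and 4 together. The 18 measured NRF2 target genes averaged 0.49, 0.28, -0.55 and -0.08 in the same pairs, with 17, 15, 1 and 6 of 18 above 0, and their part in the Abcc4 values was not tested. Over the pairs 9 of those 18 had a mean above 0 and 9 below, and the glutathione transferases Gstm4, Gstm3 and Gstm1, which had the smallest p, stood at 0.30, 0.29 and 0.26.

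Of the other carriers, 16 of 29 listed genes were measured, with 7 above 0 and 9 below, and a median of -0.03. Slc10a2 (ASBT), the sodium-dependent bile acid carrier of ileum and bile duct cells, had ratios of 0.22, 0.28, 0.24 and 0.24, a mean of 0.25 with an unadjusted p of 0.00553 and an adjusted p of 1.00 (limma, Benjamini-Hochberg). The bile duct markers, a list that holds Slc10a2 and of which 9 of 13 were measured, averaged -0.18, 0.01, -0.01 and 0.09. Slc51a and Slc51b, the subunits of the basolateral carrier OSTα/β, were not above background. Next in that list by p were Slc22a18, at a mean of 0.12, and the urate and phosphate carrier Slc17a3, at 0.14. Among 17 other ABC exporters and lipid flippases 6 were above 0 and 11 below, and none passed an unadjusted p of 0.05 with limma; the 3 with the smallest p were the cholesterol exporters Abca1 (-0.08) and Abcg1 (-0.21) and the porphyrin carrier Abcb6 (0.07).

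Of 19 measured regulators 9 were above 0 and 10 below. FXR (Nr1h4) gave -0.42, 0.09, 0.39 and -0.37, PXR (Nr1i2) gave -0.32, -0.03, 0.38 and -0.06, and CAR (Nr1i3) gave -0.47, -0.05, 0.52 and -0.22, none of 1 sign. Nr0b2 (SHP), a repressor that FXR induces, was below 0 in all 4 pairs, at -0.06, -0.27, -0.59 and -0.07, a mean of -0.24 with an unadjusted p of 0.0197 and an adjusted p of 1.00 (limma, Benjamini-Hochberg). Nr5a2 (LRH-1), an activator of bile acid synthesis genes, was above 0 in all 4 pairs with a mean of 0.16, and Keap1, the inhibitor of NRF2, had a mean of 0.16. Of 18 bile acid synthesis genes 10 were above 0 and 8 below. Cyp7a1, the rate-limiting enzyme of the classic route, gave 0.11, -0.91, 0.53 and 0.34, and Cyp8b1, which sets cholic acid content, gave 0.07, 0.37, 0.01 and 0.29. The means of Cyp2c70, which makes muricholic acids, and Cyp27a1, of the alternative route, were 0.26 and 0.10. Of 14 scaffold and apical trafficking genes 4 were above 0 and 10 below, with means of -0.15 for ezrin (Ezr) and -0.14 for the tight junction gene Cldn1. The scaffold protein Pdzk1 gave 0.11, 0.16, 0.08 and 0.11.

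CAR and PXR target enzymes lay mostly above 0. Of 30 measured, 28 had a mean above 0 (51.8% of all features) and 14 were above 0 in all 4 pairs (3.34% of all features), with a median of 0.28. In limma 16 had an unadjusted p under 0.05, all higher, beside 1.05% of all features in that direction. The list was chosen with earlier results of these data known. None passed adjustment. Cyp2b10, a CAR target, gave 2.98, 2.66, 3.65 and 4.10, with an adjusted p of 0.225 (limma, Benjamini-Hochberg), and Cyp3a11, a PXR target, gave 0.39, 1.09, 0.58 and 1.14. Cyp2c38 and Cyp2c29 had means of 1.52 and 1.08. The difference between these enzymes and the transporters was not tested. By Euclidean distance over the 4 pairs, the features nearest to Slco1a4 were Noct (0.805), Pfkfb3 (0.836) and Cyp2c39 (0.880). Noct gave -0.13, -0.19, 1.64 and 1.31, so it did not follow Slco1a4 in pair 1.

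**Figure D4:**
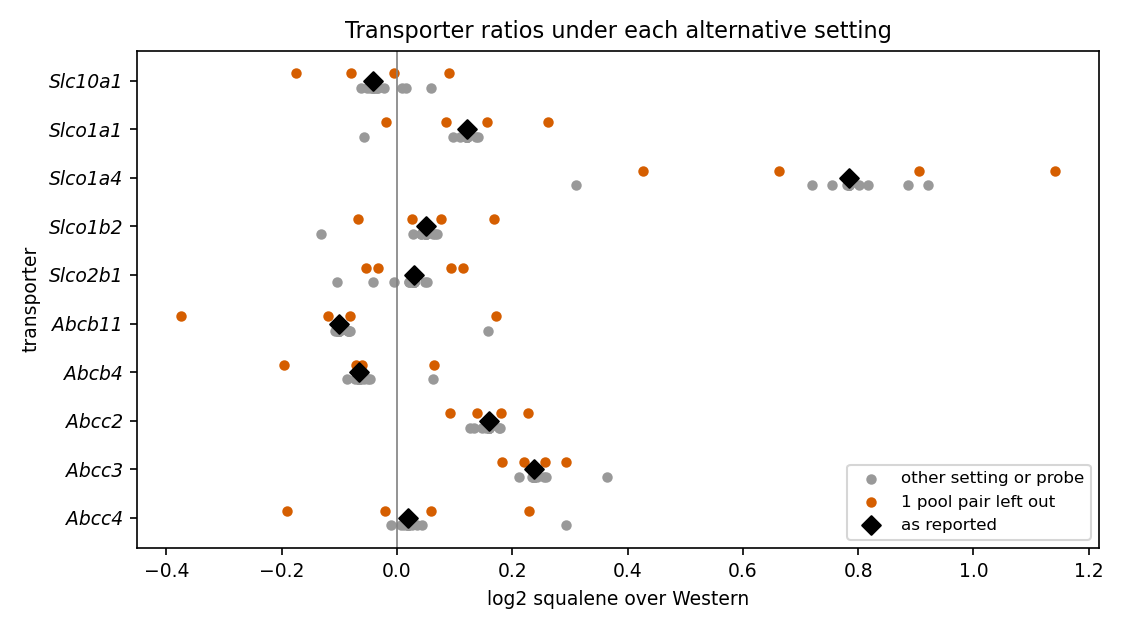
Log2 ratio of squalene over Western from the fit for each transporter under the main and the alternative settings. Slco1a4, Abcc2 and Abcc3 stay above 0 in all of them, and the other 7 cross 0 in at least 1.

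Markers of other cell types varied between the pool pairs. Kupffer cell and macrophage markers averaged 0.17, 0.08, -0.67 and -0.53, with 11 of the 12 measured below 0 on average, and red cell markers averaged 0.05, -0.45, -1.20 and 0.12, with 7 of 7 below 0. Stellate cell and fibroblast markers averaged 0.12, -0.56, -0.48 and 0.03, with 9 of 10 below 0. In limma 4 of them had an unadjusted p under 0.05, beside 2.47% of all features. That fit holds a dye term, and the stellate averages split by dye orientation. Of the 10, 9 and 6 were above 0 in pairs 1 and 4, with squalene in Cy5. In pairs 2 and 3, with squalene in Cy3, 0 and 1 were above 0. The red cell averages split in the same way. The 2 orientations also held different pools, so dye and pool cannot be told apart here. Endothelial markers averaged 0.19, -0.06, -0.23 and -0.12, also with 9 of 10 below 0, and lymphocyte markers 0.33, -0.0040, -0.08 and 0.10, with 2 of 8 below 0. None of these markers passed adjustment. Pairs 3 and 4, where Kupffer markers were lowest, were the highest pairs of Slco1a4, and whether the 2 are related was not tested. In tissue RNA, fewer cells of a type and less RNA per cell cannot be told apart. Of the exocrine pancreas markers 4 of 10 were above background.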

How the data were processed

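Liver RNA pools were compared on 2-colour arrays of 62976 spots. Spot intensity in each channel was extracted by the authors with Agilent Feature Extraction 10.7, per the submitters' processing notes and the file headers. The deposited values are log10 ratios of squalene over Western without dye normalisation, as the columns equal the ratio of the scanner's median signals within 0.001 for at least 99.9% of spots. Among the columns, 2 deposited ones, both of pair 1, hold the same log10 ratios but also 2 cells each that are too large to be ratios, so that a column as a whole is only a score, and those cells were left out. The column medians were 0.254 and 0.270 (pair 1), -0.217 and -0.257 (pair 2), -0.270 (pair 3) and 0.259 (pair 4), and these values served as an alternative only.

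From the scanner files, median spot signals were corrected for local background with normexp (offset 50) and normalised by loess in limma 3.58.1 (R 4.3.3, data.table version 1.17.8), with 3671 control spots and spot outliers at weight 0. Spots of a probe, then repeat arrays of a pool pair, were averaged. Probes well above background in at least 3 of 4 pairs in the channel of 1 diet or the other were kept, and the brightest probe stood for a gene. The fit had a diet effect and a dye term, and p-values are two-sided, adjusted over 20659 features. Values given without 1 pair are the diet effect of that fit, not the plain mean of the pairs left. Levels came from the channels after loess and Aquantile. Only 4 pool pairs limit the precision. Symbols came from RefSeq through the probes' accessions, which gave 26762 of 55681 probes a symbol. The fit was tested on simulated data. The members, lists and tests were chosen with earlier results of these data known. Named genes were all members, genes fixed by name (such as Cyp7a1), the 3 with the smallest p in each pathway list, and the nearest 3 to the member with the largest mean. Protein sequences were not used here.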

Additional observations from a re-analysis of the deposited data

Results flagged for a closer look

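The level of Abcc4 in the squalene pool of pair 1 was 8.16, and its gap to the nearest of the other squalene pools was 0.867 of the whole range, above Dixon's critical value for 4 samples. This was the only one of 30 groups of 4 examined in which a pool stood so far from the rest, and chance alone sets about 1 group in 20 apart in this way. The 2 repeat arrays of that pair gave ratios of 0.76 and 0.78.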

How the results depend on the processing

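Over 19 alternatives, 17 with a test, no transporter passed an adjusted p of 0.05 in limma, and 162 of 182 member values kept their sign. The diet effects of Slco1a4 (0.31 to 1.14), Abcc2 (0.09 to 0.23) and Abcc3 (0.18 to 0.36) stayed above 0 throughout, with an unadjusted p under 0.05 in 16, 2 and 14 of the 17. Features at an adjusted p under 0.05 were 2 under median centring, 8 in the deposited values and 12 with 6 arrays and the pool pair as a random block. Features at an unadjusted p under 0.05, 510 in the report, were 201 under median centring, 183 in the deposited values, 935 without the filter and 254 without the dye term, and 363 to 1308 without 1 pair. Transporters at an unadjusted p under 0.05 were 1 in the deposited values and 1 to 3 without 1 pair. The cause was not tested. Signs turned for Abcc4 with processed signals (-0.0096), and on slide 1 alone for Slc10a1 (0.016), Slco1a1 (-0.057), Slco1b2 (-0.13), Slco2b1 (-0.10), Abcb11 (0.16) and Abcb4 (0.062). With the mean over probes Slc10a1 was 0.0084 and Slco2b1 -0.0056, and with the other probe 0.059 and -0.042. Without 1 pair the ranges were -0.17 to 0.091 for Slc10a1, -0.020 to 0.26 for Slco1a1, -0.067 to 0.17 for Slco1b2, -0.054 to 0.11 for Slco2b1, -0.37 to 0.17 for Abcb11, -0.20 to 0.064 for Abcb4 and -0.19 to 0.23 for Abcc4. Every value is paired by array, as the ratio of the 2 pools of a pair, so no further block by pair number was fitted.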
